A study of Mus musculus with 464 samples.

Results

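This section follows 8 mouse genes that encode secreted carrier proteins: Ttr (transthyretin), Afp (alpha-fetoprotein) and the apolipoprotein genes Apoa1, Apoa4, Apob, Apoe, Apom and Apoc2. They were chosen by name, and all 8 are rows of a single-cell expression table of 21973 genes. They were read across all distinct cells kept, and their co-detection was read inside the 110 cells that carried endoderm markers. The cells come from mouse R1 embryonic stem cells, grown with a serum replacement and the cytokine LIF, formed into embryoid bodies (floating aggregates) in drops for 48 hours and then given retinoic acid for 4 days at a dose the labels state as 0.5 mM. All samples are labelled as this 1 group, each is 1 cell, and no separate cultures are named. The cells therefore count as 1 sample, no test between conditions exists, and no p-value is given.

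Apolipoproteins are the protein part of lipoproteins, the particles that carry lipid between cells. Apob forms the scaffold of the large particles that the embryo's yolk sac endoderm and the liver secrete, while Apoa1, Apoa4, Apoe and Apoc2 are exchangeable proteins that move between particles. Apom is a small lipocalin that rides on them, Ttr carries thyroid hormone and, with the retinol carrier Rbp4, vitamin A, and Afp is a fetal relative of albumin. In the early embryo the visceral endoderm, the outer cell layer that feeds the embryo before the placenta works, is the known main source of most of them.

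Of the table's columns, all but 6 passed a minimum of 2000 genes above 0 and a ceiling of 20% for transcripts of the mitochondrial genome. Among those that passed, 55 pairs of columns, 1 from each of the 2 column sets that the names show, were near copies with a correlation of 0.946 to 0.990 across genes, while no other pair passed 0.917. Each such pair was averaged and counted as 1 cell. This reading rests on the correlation alone, since no column name matches a sample title. Values were read as TPM, a share of a cell's transcripts that is corrected for gene length. No source names the unit, and comparisons of levels between genes rest on that reading. A gene counts as detected at 1 TPM or more. Sequencing depth is unknown, and the number of genes above 0 (median 6779 per cell, 2059 to 10256) is its only stand-in.

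Cells were divided by markers that are not among the 8 genes. An endoderm-marker cell had at least 3 of 8 markers, among them Gata4, Gata6, Sox17, Sox7, Foxa2, Dab2 and Cubn, and 110 cells did so (27.3% of all, exact 95% interval 23.0025 to 31.9). Few cells sat near this bound: 25 had 2 of the markers, 4 had 3, and 81 had 6 or more. A cell with at least 3 of Pax6, Sox1, Sox3, Hes5, Fabp7, Tubb3, Elavl3 and Stmn2 was called neural-marker. This gave 50 cells with endoderm markers only, 60 with both kinds, 71.7% of all cells with neural markers only and 4 cells with neither. The cells with both kinds had more genes above 0 (median 7980.5) than those with endoderm markers only (6023.5) or neural markers only (6794). No doublet caller was run, and the part of gene number in what follows was not tested.

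The endoderm class carried markers of both extraembryonic endoderm branches. Of 11 visceral endoderm markers detected in at least 10 cells, 9 were higher in endoderm-marker cells than in the other cells and 1 was lower, and all 12 parietal endoderm markers were higher. Higher means here a mean at least 2-fold above and a detected share at least 10 percentage points above that of the other cells. This rule of size called 12.3% of the 13593 genes detected in at least 10 cells higher, and 10.9% lower. Genes of other cell types known to express members of the set went different ways. Of 8 glia and astrocyte markers 4 could be called, 0 were higher, and Slc1a3 and Fabp7 were lower. These were detected in 46.8% and 88.1% of the other cells, and Fabp7 is also among the neural class markers. The median summed glia and astrocyte level was 43.1 TPM in endoderm-marker cells and 237.9 in the others. Alb was detected in 1 cell, and the macrophage genes Ptprc, Adgre1, Lyz2 and C1qa in none. Of the 8 macrophage markers 2 could be called, and both, Cd68 and Csf1r, were higher, with a summed level over the list of 0 to 471.6 TPM in endoderm-marker cells and 0 to 86.4 in the others. Of 8 hepatocyte markers 1 could be called and it was neither higher nor lower. Serpina1a and Serpina1b, with too few cells for the rule, were each detected in 7 cells, 6.36% of endoderm-marker cells and 0 of the others. The summed hepatocyte level ran from 0 to 306.9 TPM in endoderm-marker cells and from 0 to 74.7 in the others. Of 5 definitive endoderm markers tested 1 was higher and 1 lower. Of 8 choroid plexus markers, Folr1 and Clic6 were higher, detected in 70.9% and 54.5% of endoderm-marker cells, whereas Otx2 was detected in 0.909% and Kl in 0. The summed choroid plexus level ran from 0 to 1020.2 TPM in endoderm-marker cells and from 0 to 261.5 in the others.

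Of the 8 genes, 5 were higher in endoderm-marker cells: Ttr, Apoa1, Apoa4, Apoe and Apom. The share of all tested genes called higher was 12.3%. Afp was not called, and Apob and Apoc2 were detected in 4 cells each, too few for the rule. None was lower. The median log2 fold of the 6 genes that could be called was 5.37, against -0.23 for all 13593, with 0.01 TPM added to both means. Ttr, Afp and Apoa4 were detected in only 7, 5 and 1 of the other cells. They passed the minimum of 10 cells through the endoderm-marker cells, so this median is partly set by the filter and is a description. When 5 of the 8 endoderm markers were required, the log2 fold was 4.10 in place of 8.92 for Ttr, 3.48 in place of 6.84 for Apoa1 and 6.50 in place of 9.35 for Apoa4, and all 3 were still called higher. In endoderm-marker cells the mean level ran from 419.05 TPM for Apoe through 53.8 for Ttr, 44.6 for Apoa1, 14.7 for Apom, 13.6 for Apoa4, 5.91 for Apoc2 and 3.16 for Afp to 0.259 for Apob. By detected share the order has ties: Apoa1 and Apom were each found in 30 of the 110 cells, Apoa4 and Afp in 20, and Apob and Apoc2 in 4. Intervals on shares cover counting error only.

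**Figure D1:**
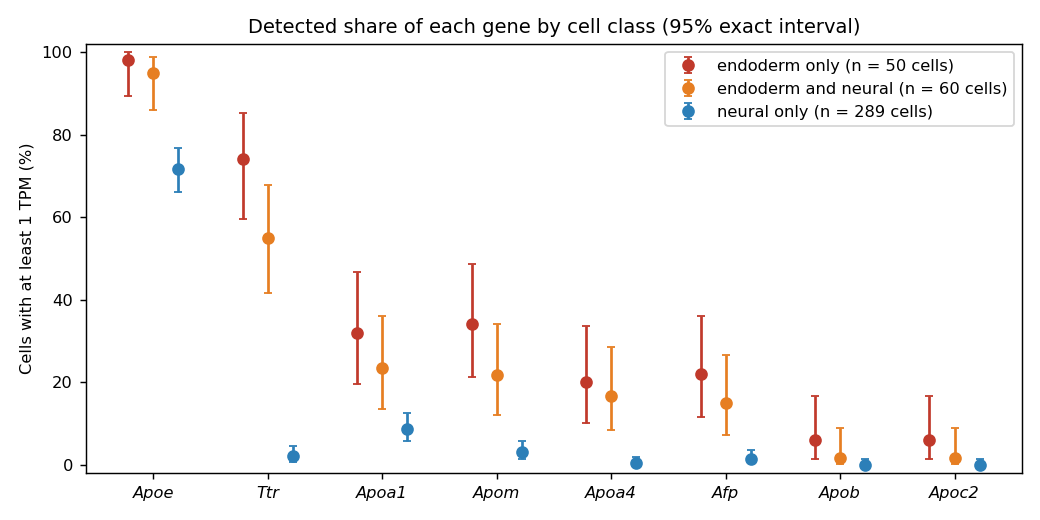
Share of cells with at least 1 TPM of each gene (y axis, percent) in cells with endoderm markers only, with both endoderm and neural markers, and with neural markers only; points are shares and bars are exact 95% intervals. Apoe is found in most cells of all 3 classes, Ttr in most endoderm cells and 2.08% of cells with neural markers only, and the other genes in a minority of endoderm cells.

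Of the 8 genes, Ttr had the largest gap in detected share, at 63.6% (53.9 to 72.6) of endoderm-marker cells against 2.39% (0.966 to 4.86) of the others. Its mean was 53.8 against 0.101 TPM. In cells with endoderm markers only it was detected in 37 of 50 cells, with a median of 59.8 TPM and a highest value of 568.2. In cells with both kinds of marker it was detected in 33 of 60, with a median of 5.57 TPM. Of the cells with neural markers only, 6 had it, 5 of them below 5 TPM, and the highest value there was 14.98. The classes overlapped in part: 61 of the 110 endoderm-marker cells lay above the highest of the other cells, and 40 were listed at 0, as most of the other cells were. Without the highest of the other cells, a setting chosen after the data were seen, the mean of the others was 0.0499658 TPM and the fold 1078 in place of 534. The share did not follow the number of endoderm markers: cells with 3 to 5, 6 or 7, and all 8 endoderm markers had Ttr in 62.1%, 66.1% and 60%.

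Rbp4 is the partner of Ttr in the blood. Across the 110 endoderm-marker cells log2 levels of Ttr and Rbp4 had a Spearman correlation of 0.65. For Ttr with Apoa1, detected in 30 of these cells, it was 0.29, and with Apoe 0.36. With the endoderm markers Tfpi and Sparc it was 0.40 and 0.39. These points share 1 culture and unknown depths, and the values are a description. Rbp4 was detected in 69 of the 70 endoderm-marker cells with Ttr and in 34 of the 40 without. Its mean was 1995 TPM in endoderm-marker cells and 8.21 in the others. Ttr levels had a Spearman correlation of -0.35 with the number of neural markers detected and of -0.25 with genes above 0, and the part of gene number was not tested. Over all distinct cells, the 3 genes most like Ttr by Spearman correlation were Ggta1 (0.67), Nid2 (0.67) and Tspan8 (0.66).

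Apoe was the one member expressed widely outside the endoderm class. It was detected in 96.4% (90.95 to 99.0005) of endoderm-marker cells and 71.7% (66.1 to 76.8) of the others, at means of 419.05 and 69.95 TPM, a fold of 5.99. In cells with endoderm markers only the median was 261.1 TPM with quartiles of 135.6 and 745, and in cells with both kinds of marker it was 153.8 TPM. In cells with neural markers only the median was 37.7 TPM and the highest value 639.4. The classes overlap, since 28 other cells (9.56% of them) reached the endoderm median, while 22 of 110 endoderm-marker cells exceeded every other cell. Among cells with neural markers only, those with 0, 1, 2 and 3 of the neuron markers Tubb3, Elavl3 and Stmn2 had median Apoe levels of 64.995, 43.2, 38.6 and 27.6 TPM, with detected shares of 70%, 64%, 82.2% and 69.1%. Their median numbers of genes above 0 were 6162.5, 6574.5, 6716 and 7187, in the same order, and the part of gene number was not tested. Of 4 glia and astrocyte markers tested, 0 were higher in endoderm-marker cells and 2 were lower. The genes most like Apoe over all cells were Hexa and B2m (both 0.54) and Cd63 (0.54), which encode a lysosomal enzyme, a subunit of surface antigen-presenting proteins and a membrane protein of endosomes.

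**Figure D2:**
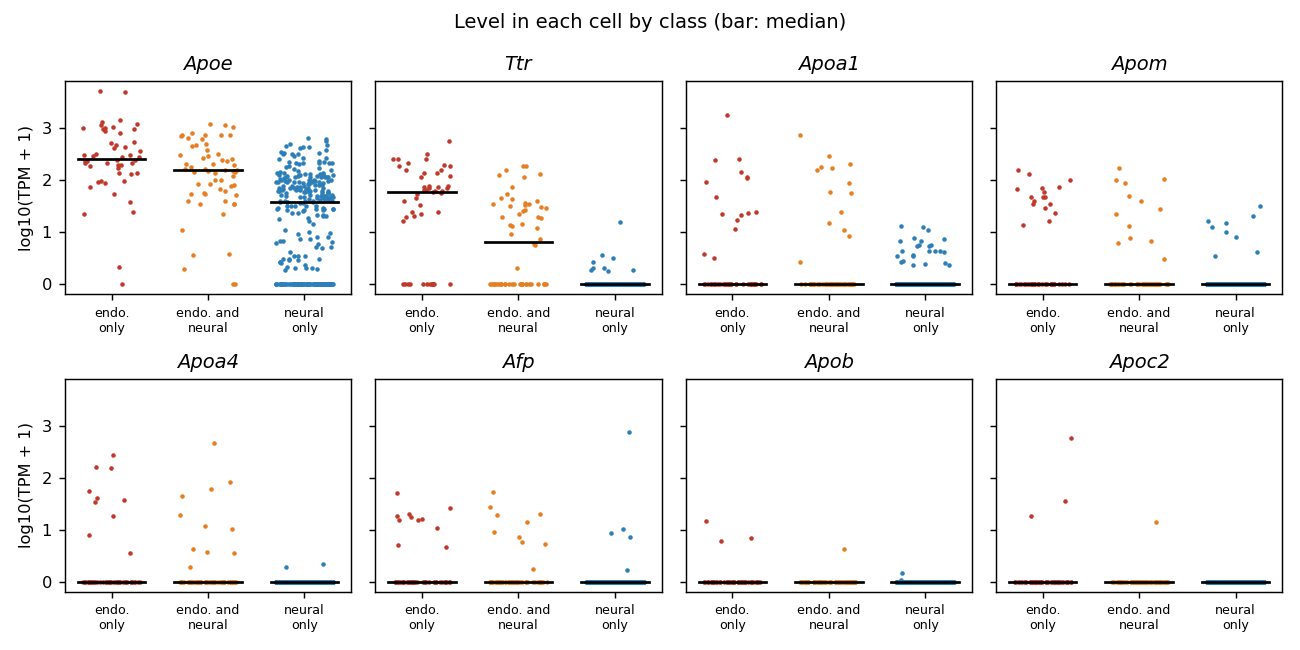
Level of each gene in each cell on a log10(TPM + 1) scale, by class, with a bar at the median; endo. stands for endoderm markers. Medians above 0 are seen for Apoe in all 3 classes and for Ttr in both endoderm classes, and a few cells reach far above the rest for Apoa1, Apoa4, Afp and Apoc2.

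Apoa1, the main protein of high-density lipoprotein, was detected in 27.3% (19.2 to 36.6) of endoderm-marker cells and 8.53% (5.60 to 12.3) of the others, at means of 44.6 and 0.380 TPM. Where it was detected in endoderm-marker cells its median was 57.7 TPM, and 24 of these 30 cells exceeded every other cell. In the 25 cells with neural markers only that had Apoa1 the highest value was 12.2 TPM and 18 lay below 5 TPM. In the 55 repeated pairs Apoa1 was seen in both columns of 4 cells and in only 1 column of another 4, at up to 6.88 TPM, so values of this size did not always recur in the repeat column.

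Apoa4, which lies near Apoa1 in the same gene cluster, was detected in 20 of 110 endoderm-marker cells (18.2%, 11.5 to 26.7) and in 1 of the others (0.341%). Its means were 13.6 and 0.0109 TPM. Apoa1 lies on chromosome 9 at 46228630 to 46230469, Apoc3 at 46233050 to 46235636 and Apoa4 at 46240844 to 46243458 (RefSeq, GRCm38.p6, the build also called mm10). Apoa4 was detected in 40% (22.7 to 59.4) of endoderm-marker cells with Apoa1 and in 10% (4.42 to 18.8) of those without. Apoc3, an inhibitor of lipoprotein lipase, was in 8 of the 20 cells with Apoa4 and 5 of the 90 without. Apoa2, which lies on chromosome 1, was detected in 63.3% (43.9 to 80.1) of the cells with Apoa1 and 16.3% (8.95 to 26.2) of those without. Apoa2 overlaps the annotated gene Tomm40l, and how the counting divided reads between them is not given in the sources used here. Apoa5, farther along the cluster of Apoa1, was detected in 1 cell, which was not an endoderm-marker cell.

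The sequence before the start sites of Apoa1, Apoa4 and Afp is shown because Apoa1 and Apoa4 are neighbours that shared 12 of the 38 endoderm-marker cells with either, and Afp, on another chromosome, is set beside them. Each line gives the 130 bases that end at the base before the RefSeq start (GRCm38.p6, plus strand, all 3 genes), with matches to the searched motifs in capitals.
Apoa1, chr9:46228500-46228629: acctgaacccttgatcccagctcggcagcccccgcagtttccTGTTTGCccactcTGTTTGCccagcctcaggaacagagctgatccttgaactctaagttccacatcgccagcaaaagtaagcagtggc
Apoa4, chr9:46240714-46240843: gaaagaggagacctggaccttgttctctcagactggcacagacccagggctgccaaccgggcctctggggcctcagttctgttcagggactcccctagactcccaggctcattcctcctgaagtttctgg
Afp, chr5:90490584-90490713: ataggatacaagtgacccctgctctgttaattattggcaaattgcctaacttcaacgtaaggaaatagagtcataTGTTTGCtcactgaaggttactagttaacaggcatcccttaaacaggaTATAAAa

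The capitals mark TGTTTGC, a variant of the letters bound by the FOXA factors, and TATAAA, the letters of the TATA box. In Afp the latter lie at -7 to -2 from the listed start, nearer to it than a TATA box usually lies. In Apoa1 the FOXA letters lie at -88 to -82 and -75 to -69 from the start, and in Afp at -55 to -49. Over the 250 bases before the first listed start, on both strands, TGTTTGC was found in 3 of the 7 members that the table holds (Afp, Apoa1 and Apob) and in 4.3% of 27025 genes. TATAAA was found in 2 of 7 (Afp and Apob) and 13% of genes. The other letters searched were in 0 of 7: CAAAGTCCA for HNF4, in 0.381% of genes, TGTTTAC for FOXA in 3.09%, AGATAA for GATA factors in 10.3% and TTGCNNAAT for C/EBP factors in 2.17%. A direct repeat for HNF4 and a retinoic acid response repeat were in 0 of 7 and in 0.037% and 0.0074% of genes. A match is a run of letters and not a measured binding site.

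Apom was detected in 27.3% (19.2 to 36.6) of endoderm-marker cells and 3.41% (1.65 to 6.19) of the others, at means of 14.7 and 0.973 TPM. Where it was detected in endoderm-marker cells its median was 42.8 TPM. It was found more often in cells with Apoa1 (46.7%, 28.3 to 65.7) than in those without (20%, 11.9 to 30.4), although these intervals overlap. Apoc1 was detected in 70% (50.6 to 85.3) of the cells with Apom and 20% (11.9 to 30.4) of those without. The endoderm-marker cells with Apom had a median of 7228.5 genes above 0 and those without 6544.5. Cells with 3 to 5, 6 or 7, and all 8 endoderm markers had Apom in 17.2%, 23.2% and 48%. Their median numbers of genes above 0 were 6355, 6610 and 7462. The part of gene number was not tested. One cell with neither kind of marker had 172.07 TPM of Apom and 2059 genes above 0, near the lower limit for kept cells. Without this cell, a setting chosen after the data were seen, the mean of the other cells was 0.388 TPM and the fold 37.9 in place of 15.1. Apom lies on chromosome 17 at 35128997 to 35131801. Over all cells its level was most like that of Plac1 (Spearman 0.49), Efhc2 (0.47) and Ap1m2 (0.45).

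Afp was detected more often in endoderm-marker cells, in 18.2% (11.5 to 26.7) against 1.71% (0.556 to 3.94), but its means were close, at 3.16 and 2.97 TPM. A single cell with neural markers only, at 775 TPM, held 63.6% of all Afp in the table. That cell had 2 of the 8 endoderm markers, among them Foxa2 at 556 TPM, the highest of all cells, and 4 of the neural markers, among them Pax6 at 146.79 TPM. It also ranked 2 among all cells for Otx2 and had 4714 genes above 0. Without this cell, a setting chosen after the data were seen, the Afp means were 3.16 and 0.329 TPM, a fold of 9.60, and Afp was called higher. The next highest Afp value was 72.04 TPM. Alb, its neighbour on chromosome 5 (Afp lies at 90490714 to 90508907), was detected in none of the 25 cells with Afp.

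Afp did not follow Ttr or Apoa1. Ttr was detected in 50% (27.2 to 72.8) of endoderm-marker cells with Afp and 66.7% (55.9 to 76.3) of those without, and Apoa1 in 20% (5.73 to 43.7) and 28.9% (19.8 to 39.4), with intervals that overlap in both cases. Apom was in 10 of 20 cells with Afp (50%, 27.2 to 72.8) and 20 of 90 without (22.2%, 14.1 to 32.2), again with overlapping intervals. The log2 levels of Afp and Apom had a Spearman correlation of 0.22 in endoderm-marker cells. The 3 genes most like Afp over all cells were Elovl7 (Spearman 0.42), Dppa5a (0.38) and Dppa4 (0.38), of which the latter pair are known as genes of pluripotent cells. With 25 cells in which Afp was detected, these values are descriptions.

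Apob and Apoc2 were rare. Apob was detected in 4 endoderm-marker cells at 13.8, 6.16, 5.28 and 3.30 TPM, and 2 other cells had a value above 0, the higher of them 0.490 TPM. Mttp, which loads lipid onto the Apob protein, was far more common, in 79.1% (70.3 to 86.3) of endoderm-marker cells and 30.03% (24.8 to 35.6) of the others. Apoc2, the cofactor of lipoprotein lipase, was detected in 4 endoderm-marker cells at 584, 35.6, 17.8 and 13.02 TPM and was listed at 0 in all other cells, which allows a share of cells of up to 1.25% by the exact interval (1.02% if taken as 3 counts of the total). All 4 cells with Apoc2 also had Ttr, Apoe and Apom. Apoc2 overlaps the annotated gene Gm44805, and how the counting divided reads between them is not given in the sources used here.

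One cell carried several of the highest values. It had endoderm markers only (7 of 8), 5881 genes above 0 and 7 of the 8 genes, all but Afp. Among all cells it was the highest in Apoe (5249 TPM), Apoa1 (1760), Apoc2 (584) and Apob (13.8), and also in Apoa2 (1719) and the visceral endoderm gene Spink1 (775). It held 89.8% of all Apoc2 and 35.1% of all Apoa1 in the table. Without it the Apoa1 fold of endoderm-marker over other cells was 76.0011 in place of 117.4, and the mean of Apoc2 in endoderm-marker cells was 0.609 in place of 5.91 TPM. For Apoe the fold was 5.36 in place of 5.99.

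The number of the 8 genes found in a cell separated the classes without marking them cleanly. Endoderm-marker cells had a median of 2 and up to 7, and the other cells a median of 1 and up to 3. At least 4 were detected in 24 of 110 endoderm-marker cells (21.8%, 14.5 to 30.7) and in 0 of the others, which allows up to 1.25% by the exact interval. The share was 26% (14.6 to 40.3) in cells with endoderm markers only and 18.3% (9.52 to 30.4) in cells with both kinds, with overlapping intervals. The commonest combination was Ttr with Apoe and nothing else, in 30 cells, followed by Apoe alone in 18, and 3 cells had none of the 8. Over the 110 cells the number detected had a Spearman correlation of 0.12 with genes above 0.

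**Figure D3:**
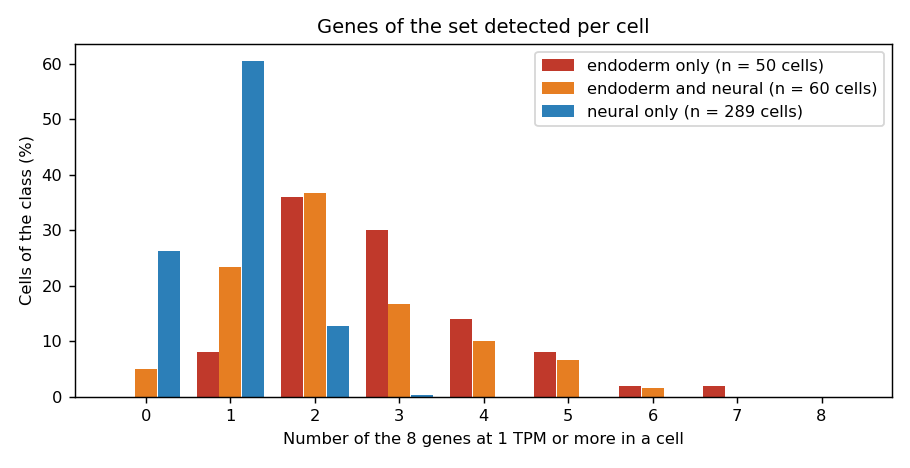
Share of cells of each class (y axis, percent) by how many of the 8 genes reach 1 TPM in the cell (x axis). Cells with neural markers only peak at 1 gene, both endoderm classes peak at 2, and only endoderm classes reach 4 or more.

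**Figure D4:**
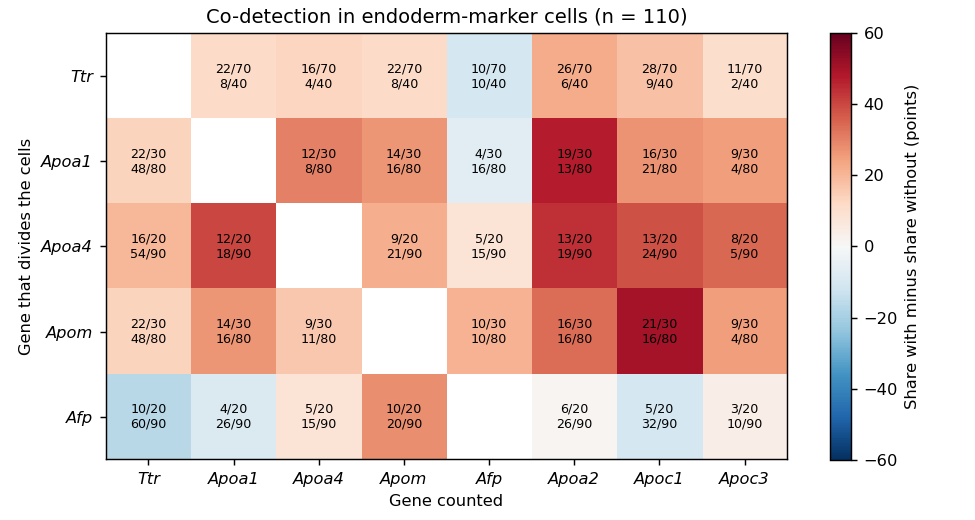
Co-detection in the 110 endoderm-marker cells: each tile gives cells with the column gene among cells with the row gene (upper) and without it (lower), and colour is the difference of those shares in percentage points. Apoa2 among cells with Apoa1 (63.3% against 16.3%) and Apoc1 among cells with Apom (70% against 20%) show large differences, and Ttr among cells with Afp (50% against 66.7%) a negative one.

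Other genes of lipoprotein transport were higher, lower or not called. Of 10 further apolipoprotein genes, 6 could be called and 3 were higher: Apoa2 (46.3 against 0.119 TPM), Apoc1 (20.5 against 4.59) and Apoc3 (9.63 against 0.0111). Of 10 assembly genes 3 were higher, namely Mttp at 9.50-fold, Soat1, a cholesterol esterifying enzyme, at 6.56-fold, and Tm6sf2, a gene of lipid loading, at 46.3-fold. Of 9 tested receptor genes 3 were higher, among them Lrp2 (megalin, 44.2-fold) and Lsr (5.49-fold), while Lrp1, Lrp8 and Scarb1 were lower with folds of 0.278, 0.420 and 0.437. Of 6 tested genes of lipid efflux and remodelling, Abca1, which passes cholesterol to Apoa1, was higher at 3.45-fold and Lpl was lower at 0.288-fold. These counts stand beside the 12.3% and 10.9% of all genes called higher and lower.

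Among 12 further plasma protein genes 3 could be called, and Rbp4 and the fibrinogen gene Fgb were higher, Fgb in 14.5% of endoderm-marker cells and in none of the others. Of 8 tested liver-type transcription factor genes 2, Foxa3 and Hnf4a, were higher, and 1, Zbtb20, was lower with a fold of 0.412. Over all genes tested, the rule called 12.3% higher and 10.9% lower. Foxa3 was detected in 30 endoderm-marker cells and in none of the others. Cells with Foxa3 had Ttr in 83.3% (65.3 to 94.4) and at least 4 of the 8 genes in 40% (22.7 to 59.4), against 56.3% (44.7 to 67.3) and 15% (7.998 to 24.7) of endoderm-marker cells without it, with median gene numbers of 6984 and 6730. The intervals overlap in both cases. Hnf4a was found in 15 endoderm-marker cells, of which 8 had Apoa1 (53.3%, 26.6 to 78.7). Of the 95 without it 22 did (23.2%, 15.1 to 32.9), with overlapping intervals. With and without Hnf4a, Ttr was in 80% and 61.1%, Apoa4 in 20% and 17.9%, and Apom in 33.3% and 26.3%. Afp was in 13.3% and 18.9%, and at least 4 of the 8 genes in 26.7% and 21.1%. Median gene numbers were 7979 and 6771.

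In both column sets Ttr, Apoa1, Apoe and Apom were called higher in endoderm-marker cells, with folds that differed, while Afp and Apoa4 were called in set 2 only. In set 1 Apoa4 was detected in 9 of 55 endoderm-marker columns (16.4%), under the minimum of 10 cells, at a mean of 10.6 TPM, and was listed at 0 in every other column of that set. In sets 1 and 2, taken with all their columns, Ttr was detected in 63.6% and 60% of endoderm-marker columns and Apoe in 98.2% and 95.7%. The fold of Apoa1 was 210.9 in set 1, which holds the cell with the highest value, and 41.6 in set 2. For Apom the fold was 10.3 in set 1, which holds the cell with neither kind of marker and 172.07 TPM, and 100.9 in set 2. The Apom means of the other columns were 1.59 and 0.107 TPM. Afp had a fold of 0.714 in set 1, which holds the cell with 775 TPM, and 6.52 in set 2, where it was called higher.

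**Figure D5:**
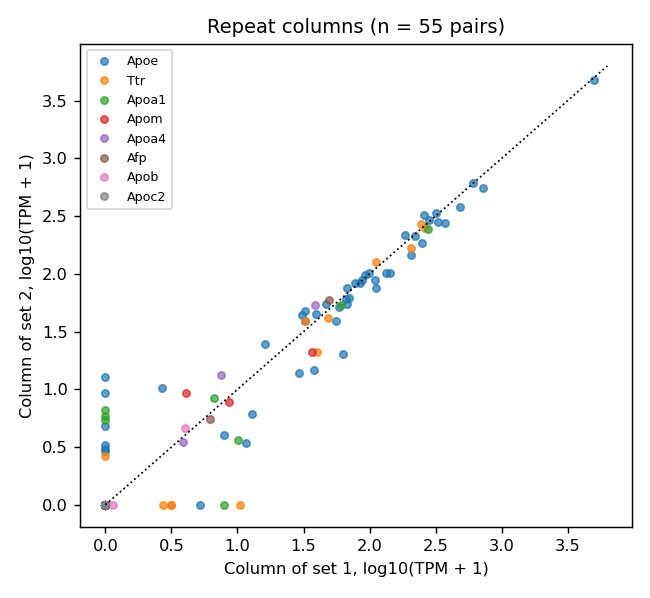
The 8 genes in the 55 pairs of repeat columns, which were picked by their correlation. The set 1 column is on the x axis and the set 2 column on the y axis, both log10(TPM + 1), with a dotted line at equality. Higher values lie near the line, while points on the axes, detected in 1 column only, reach 11.7 TPM.

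The repeat columns were picked by the correlation of their values across genes, so their agreement is partly set by that choice. The counts below are descriptions. Apoe was detected in both columns of 41 pairs, in 1 column only of 7 and in neither of 7, and where both had it they differed by a median of 1.25-fold. For Ttr the counts were 7, 5 and 43, with a median difference of 1.16-fold. Afp, Apoa4 and Apom were detected in both columns or in neither, in 2, 3 and 3 pairs. No value found in only 1 column of a pair passed 11.7 TPM for any of the 8 genes.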

How the data were processed

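Each cell was taken on a C1 chip, its RNA copied with SMART-Seq V4 chemistry, which adds no molecular identifiers, and made into Nextera XT libraries, per the labels' protocols. The submitters' processing notes name STAR, RSEM and the build mm10, without versions. The authors deposited 1 table whose unit no source names. The deposited values were read as TPM, since they are decimals and no column sum passes the total that TPM allows (54.2% to 95.1% of it). TPM keeps no depth. For annotation and filters, no source used here gives them. The header line, joined to the first gene's row, was split. The table has 464 columns for 464 samples of 1 group, and no column name matches a title. The cell filter kept 458 columns, which hold 403 distinct cells: 110 with endoderm markers and 293 others, of which 289 had neural markers only.

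Cells, detection, classes, the rule of size and the averaging of near copies (correlation over 0.93) are given in the results. Shares have exact Clopper-Pearson 95% intervals, which cover counting error only. The genes, lists and marker classes were chosen with earlier results of these data known. Named genes are the 8 members, the called members of each list with up to 4 of the largest folds, and for each member the 3 genes with the highest Spearman correlation among those detected in at least 10% of cells. The gene Ttr is given without position. Start sites and positions are RefSeq's, and Ttr is not among the 7 start sites matched. Python 3.11.15, numpy 2.4.6, scipy 1.17.1 and pandas 2.3.3 were used, and the rule was tested on simulated data. Alternatives covered the detection threshold, repeats, column sets, gene-rich cells, scaling, marker number, cell filter and the highest single cells. Log2 folds had 0.01 TPM added to both means. Some list members are not reported here.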

Additional observations from a re-analysis of the deposited data

How the results depend on the processing

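The endoderm-marker share of cells was 27.3%. It was 32.3% when any value above 0 counted as detected and 33.5% when 2 of the 8 markers sufficed, and it stayed within its interval under the other 10 alternatives, with a lowest value of 23.8%. The number of the 8 genes called higher was 4 to 6 under the 12 alternatives, the median number of genes per endoderm-marker cell was 2 in all of them, and the share of endoderm-marker cells with at least 4 was 17.1% to 23.6%. Afp was called higher with column set 2 alone and with 2 of 8 markers, where its log2 fold was 2.68 and 6.51, since the cell with the most Afp was then absent or in the endoderm class. Apoa4 was not called with column set 1 alone, where it was detected in 9 cells, under the minimum of 10. Ttr, Apoa1, Apoe and Apom were called higher in all 12 alternatives, but sizes moved: log2 folds (0.01 TPM added to both means) ran from 4.10 to 9.97 for Ttr, 3.48 to 7.68 for Apoa1, 3.36 to 6.53 for Apom and 2.31 to 2.88 for Apoe. The alternatives without a single cell were chosen after seeing the data. No paired analysis was possible because there is 1 group and no comparison between samples. Depth is unknown, so a gene listed at 0 in a cell cannot be called absent there, and 1 TPM is a chosen bound below which some values lie.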

Other observations

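Within the 110 endoderm-marker cells, visceral endoderm markers went different ways with Apoa1. Lrp2, an endocytic receptor gene, was detected in 63.3% (43.9 to 80.1) of cells with Apoa1 and 87.5% (78.2 to 93.8) of cells without, with overlapping intervals. The trypsin inhibitor gene Spink1 was detected in 53.3% (34.3 to 71.7) and 21.3% (12.9 to 31.8). Amn, which encodes a partner of Cubn, was detected in 36.7% (19.9 to 56.1) and 21.3% (12.9 to 31.8), and the parietal endoderm marker Thbd in 16.7% (5.64 to 34.7) and 32.5% (22.4 to 43.9), both with overlapping intervals. Of the 23 endoderm-marker cells without Mttp, 1 had Apoa1, 1 had Apoa4, 1 had Apom and 0 had 4 or more of the 8 genes, and their median of 6005 genes above 0 was below the 6974 of the 87 cells with it. The part of gene number in these counts was not tested. Of the 6 columns that failed the cell filter, 1 had Apoa4 at 6.69 TPM and 1 had Apoe at 2.86 TPM, and the other members were not detected in them.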
